A study of Mus musculus with 2 samples.

Results

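*Cdh12*, *Cdh13* and *Pcdh8* encode cell adhesion molecules of the cadherin superfamily, whose extracellular cadherin repeats bind calcium and join the surfaces of neighbouring cells. *Cdh12* (N-cadherin 2) is a classical type II cadherin. *Cdh13* (T-cadherin) has cadherin repeats but is held in the membrane by a GPI anchor and lacks a cytoplasmic tail. *Pcdh8*, also known as arcadlin or paraxial protocadherin, belongs to the δ2 protocadherins, and its product has been linked to the internalisation of N-cadherin at synapses. In the embryonic forebrain cadherins are expressed in region- and layer-restricted combinations, and they take part in the sorting of cells, the migration of neurons and the formation of contacts. The 3 genes were chosen by name, as the columns *Cdh12*, *Cdh13* and *Pcdh8* of the deposited count tables, from a panel of 500 genes that held 10 genes of the cadherin list (these 3 with *Cdh9*, *Cdh20*, *Pcdh7*, *Pcdh9*, *Pcdh11x*, *Pcdh15* and the calsyntenin gene *Clstn2*).

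Their transcripts were counted by MERFISH, which reads single RNA molecules in tissue from fluorescent barcodes over rounds of imaging, in coronal sections of embryonic mouse brain at E16.5. The control was *Sst-Cre/tdTomato* and the KO was *Sst-Cre/tdTomato/Dnmt1 loxP2*, so both carried the *Sst*-driven Cre and the tdTomato reporter, and the loxP-flanked *Dnmt1* allele was present in the KO alone. *Sst* encodes somatostatin and *Dnmt1* encodes a DNA methyltransferase. The Cre driver acts in *Sst*-expressing cells anywhere in the brain and not only in the cortex. Each group was 1 section of 10 µm from a pilot experiment. Run, animal and genotype therefore cannot be told apart in any comparison between the sections, no test was possible, and the intervals given are exact 95% intervals for counting error only. The panel held no probe for *Dnmt1*, which left the deletion unchecked here, and the position of each section along the anterior-posterior axis was not checked.

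The control section held 108533 segmented cells with 2842355 panel transcripts, and the KO section held 110004 cells with 13437174. No cell identifier occurred in both sections (0 shared). The median was 20 transcripts per cell in the control and 101 in the KO, so depth and genotype cannot be told apart either. Blank barcodes, which code for no gene, took 0.496% and 0.486% of transcripts. Only cells of 20 or more transcripts entered the analysis, 50.9% of control and 92.0% of KO cells. Levels are given in CPM, the counts of a gene per 1000000 panel transcripts in the same cells, a share of the panel and not an amount per cell. An average blank barcode stood at 92.0 CPM in the control and 97.5 CPM in the KO, which marks the level of false decoding. Levels of different genes were not compared with each other, since each gene has its own probes.

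The files gave no coordinates for the probes. In the GENCODE vM39 annotation of the mouse genome build GRCm39, *Cdh12* lies on chromosome 15 at 20449351 to 21589622 on the plus strand, with 13 exons in its representative transcript. *Cdh13* lies on chromosome 8 at 119010328 to 120051660 on the plus strand, with 14 exons. *Pcdh8* lies on chromosome 14 at 80004215 to 80008752 on the minus strand, with 3 exons. The cadherin genes span 1140.272 kb and 1041.333 kb, mostly introns, whereas *Pcdh8* spans 4.538 kb, and most of its 4000-base transcript is coding (3210 bases).

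To ask where in the forebrain each gene was expressed, the pallial region, which holds the developing cortex, and the subpallial region, which holds the ganglionic eminences and the striatum, were outlined from the balance of pallial and subpallial genes. They measured 4.25 and 4.42 mm² in the control and 4.00 and 4.40 mm² in the KO section. *Cdh12* stood at 2283 CPM (2169 to 2402, 1500 transcripts) in the pallial and 706 CPM in the subpallial region of the control, a 3.23-fold difference. In the KO section it stood at 2876 CPM (2825 to 2928, 12231 transcripts) and 853 CPM, a 3.37-fold difference. *Cdh12* was thus several times higher in the pallial region of both sections. Its mean over the rest of the section (236 and 348 CPM in control and KO) was a few times that of an average blank barcode. Places within that tissue were not compared.

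*Cdh13* was also higher in the pallial region, with 3580.2 CPM (3437 to 3728, 2352 transcripts) against 1653 CPM in the subpallial region of the control, a log2 difference of 1.11. The KO values were 3849 CPM (3790.2 to 3908, 16368 transcripts) and 1968 CPM, a log2 difference of 0.97. *Pcdh8* had no such preference. Its level was 3528 CPM (3386 to 3675, 2318 transcripts) in the pallial and 3935 CPM in the subpallial region of the control, and 1711 CPM (1672 to 1750.5, 7275 transcripts) and 1847 CPM in the KO, with log2 pallial over subpallial of −0.16 and −0.11. In tissue outside both regions *Pcdh8* stood at 543 and 396 CPM.

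**Figure D1:**
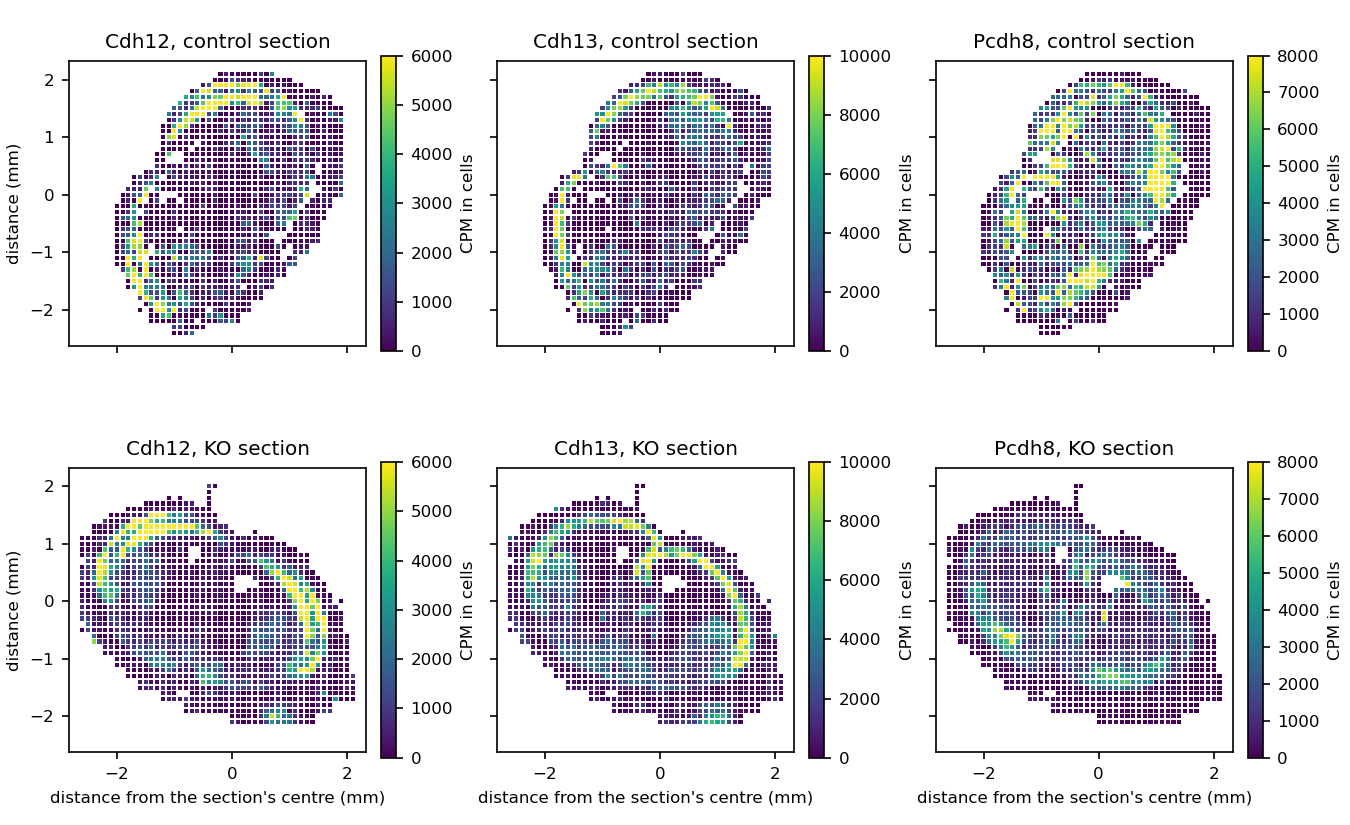
Levels of *Cdh12*, *Cdh13* and *Pcdh8* (columns) in the control section (top) and that of the KO (bottom), in CPM per bin of 100 µm with at least 200 panel transcripts, by distance from the centre of the section in mm. The colour scales end at 6000, 10000 and 8000 CPM for the 3 genes, values above them have the end colour, and the sections lie at different angles. As means over each region, the cadherins are higher in the pallial than in the subpallial region, whereas *Pcdh8* also covers the subpallial region.

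The neighbourhoods of the 3 genes differed in the same way. Likeness was measured as Pearson's r of CPM over tissue bins of 200 µm, 344 for the control and 361 for the KO. These bins share library, depth and anatomy, so r is a description. Among the panel genes most like *Cdh12* were *Tbr1* (r of 0.68 in the control and 0.68 in the KO) and *Ntng2* (0.68 and 0.68). Those most like *Cdh13* were *Tbr1*, a regulator of deep-layer corticothalamic neurons (0.76 and 0.77), *Kcng1* (0.81 and 0.76) and *Rprm* (0.73 and 0.74). Those most like *Pcdh8* were *Elfn1*, a synaptic adhesion protein of interneurons (0.57 and 0.61), *Epha6* (0.55 and 0.68) and *Nkain3* (0.54 and 0.58). Between the members themselves r was 0.56 and 0.53 for *Cdh12* with *Cdh13*, 0.26 and 0.16 for *Cdh12* with *Pcdh8*, and 0.20 and 0.23 for *Cdh13* with *Pcdh8*. Hence the cadherins shared more of their map with each other than either did with *Pcdh8*.

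The laminar pattern was read along the relative depth of the cortical wall, from 0 at the pial to 1 at the ventricular edge, in 10 bins over 11933 control and 23517 KO cells. Each gene had its own profile. *Cdh13* formed a single band with an inner shoulder: its control level was 390.4 CPM in the first bin, 2431 in the second, 7437 in the third and 8279 in the fourth, then 5172 in the fifth and 1053 in the last. The KO profile had its band in the same bins, with 208, 2566, 8089, 8173 and 5122 CPM from the first to the fifth bin and 477 in the last. The inner shoulder was lower in the KO, where *Cdh13* stood at 1919 CPM in the eighth bin beside 3434 CPM in the control. Levels by bin were not computed by hemisphere, and the inner share of *Cdh13* differed between the KO hemispheres, as given below. The band in the third and the fourth bin lies where cells of the deep-layer neuron-like cluster, described below, had their median depth (0.331 in the control, 0.296 in the KO).

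*Cdh12* instead had an outer and a middle maximum. In the control it stood at 4369 CPM (3832 to 4959) in the second bin, 2730.4 CPM (2353 to 3151) in the fourth and 4368 CPM (3868 to 4913) in the fifth, and in the KO at 4897 (4676 to 5125), 4204 (4001 to 4413) and 5033 CPM (4814 to 5260.1). The dip between the maxima was lowest in the fourth bin, and it was shallower in the KO section. In the third bin, where *Cdh13* was also high, *Cdh12* stood at 3792 CPM (3320 to 4313) in the control. The KO level there was 4812 CPM (4602 to 5030), near its outer maximum. *Cdh12* ended at 1301 and 1511 CPM at the ventricular edge.

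*Pcdh8* formed no cortical plate band. Its control level lay between 3271 and 4370.2 CPM from the second to the seventh bin and between 5019 and 5757 CPM in the inner 3 bins. In the KO the corresponding ranges were 1234 to 1988 and 2243 to 2852 CPM. Per panel transcript all 10 bins were lower in the KO, and the inner bins were the highest of the profile in both sections. The marginal first bin was low for all 3 genes.

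**Figure D2:**
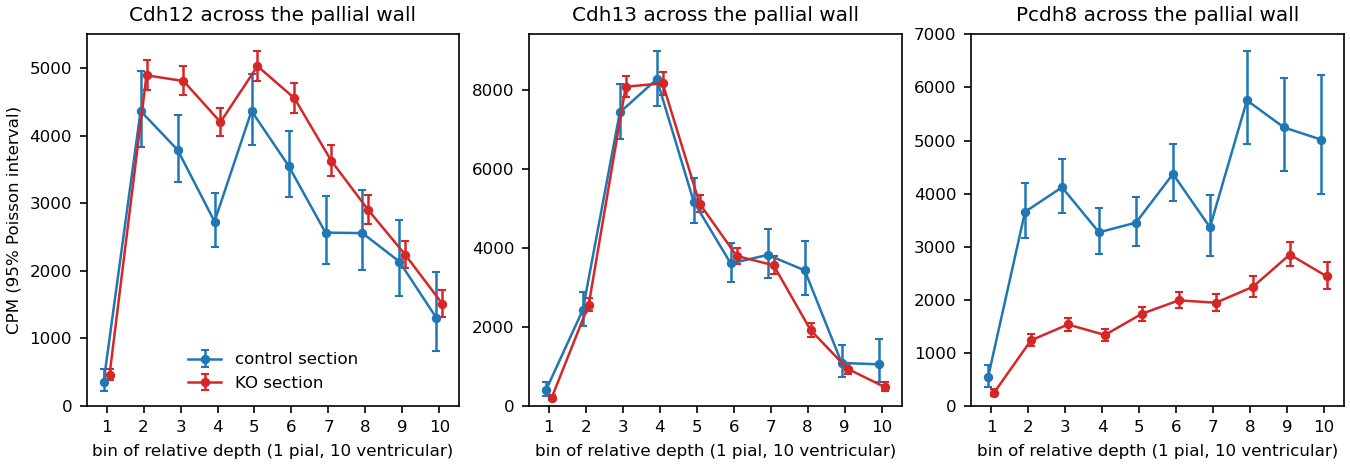
Level of each gene in CPM by relative depth of the cortical wall in 10 bins (1 at the pial and 10 at the ventricular edge), control (blue) and KO (red), with exact Poisson 95% intervals. *Cdh13* peaks in the third and the fourth bin, *Cdh12* in the second and the fifth, and *Pcdh8*, which is lower per panel transcript in the KO (per cell it was higher over the pallial region as a whole), is highest in the inner bins.

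As shares of each gene's pallial transcripts, 58.1% of *Cdh13*, 47.5% of *Cdh12* and 41.0% of *Pcdh8* lay in the outer 4 bins of the control, beside 50.1% of all panel transcripts. The KO shares were 59.3%, 47.8% and 32.4%, beside 46.3% of the panel. In the same order of genes, the inner 3 bins held 7.4%, 10.9% and 23.1% in the control and 5.9%, 12.3% and 29.9% in the KO, beside 15.5% and 20% of the panel. The outer share of *Pcdh8* was thus 8.64 percentage points lower in the KO, and this difference lay between −11.2 and −4.56 points over the pairs of hemispheres. With all decoded molecules the outer shares of *Pcdh8* were closer, 37.5% and 33.2%, and averaged by CPM they were 29.9% and 24.8%. For *Cdh12* and *Cdh13* the sign of the difference depended on the hemispheres compared. The inner share also varied within a section: that of *Pcdh8* was 35.8% and 19.5% in the control hemispheres, on either side of 30.9% and 28.8% in those of the KO, and that of *Cdh13* was 7.99% and 7.15% in the control and 9.004% and 3.42% in the KO. The difference between the sections in these inner shares therefore depended on the hemisphere. Hemispheres of 1 section are not replicates.

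To ask which cells carried the transcripts, the cells of both sections were clustered on the panel without the 3 genes, which gave 26 clusters, named after marker genes where at least 3 markers of a class were among the leading genes and no other class had as many. *Cdh13* was concentrated in the deep-layer neuron-like cluster, led by *Mc4r*, *Fezf2* and *Ntsr1*, at 7982 CPM in 4877 control cells and 8567 CPM in 9520 KO cells. That cluster held 59.4% of the pallial *Cdh13* transcripts of the control and 56.6% of those of the KO, beside 26.6% and 25.4% of the pallial panel transcripts. An unnamed pallial cluster led by *Slc17a7*, *Nr4a2* and *C1ql3* held a further 23.7% and 24.7%, at 5348 and 6034 CPM. In a cluster of upper-layer or immature projection neuron-like cells (called the upper-layer or immature cluster here), led by *Sstr2*, *Unc5d* and *Pou3f2*, *Cdh13* stood at 992 CPM in the control and 593 CPM in the KO, and the cluster held 3.2% and 2.8% of its pallial transcripts. Outside the pallium *Cdh13* stood at 2806 and 3081 CPM in the striatal projection neuron-like cluster.

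*Cdh12* was highest in that same upper-layer or immature cluster, at 5366 CPM in 2556 control cells and 4785 CPM in 8081 KO cells. The median depth of these cells was 0.559 in the control and 0.624 in the KO. They thus lay nearer the ventricular edge than the deep-layer neuron-like cluster, and not at the outer maximum of *Cdh12*. It was nevertheless shared between projection neuron clusters: the deep-layer neuron-like cluster (2913 and 3787 CPM) held 34.1% and 33.5% of its pallial transcripts, the upper-layer or immature cluster 27.2% and 29.8%, and the *Slc17a7* and *Nr4a2* cluster (3366 and 4319 CPM) 23.5% and 23.3%. In the same order, the clusters held 26.6% and 25.4%, 11.4% and 17.6%, and 15.2% and 15.2% of the pallial panel transcripts. The last of these clusters and the deep-layer neuron-like cluster had overlapping intervals in the control (3027 to 3732 and 2666 to 3177 CPM) but not in the KO. In the radial glia-like cluster led by *Hopx*, *Aldoc* and *Eomes* it stood at 110.3 and 75.7 CPM, beside 83.5 and 65.1 CPM for an average blank barcode there, so that *Cdh12* was not detectable above false decoding in these progenitors.

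*Pcdh8* was present in progenitors and in neurons of both pallium and subpallium. In the control it was highest in the MGE interneuron-like cluster, led by *Sst*, *Elfn1* and *Sertm1*, at 7743 CPM in 4042 cells, and next highest in the upper-layer or immature cluster at 6998 CPM, and it stood at 5356 CPM in an unnamed cluster led by *Calb2*, *Prokr2* and *Crym*. The corresponding KO levels were 3839, 2261 and 2279 CPM. The intervals of the first and the next cluster overlapped in the control (7351 to 8149.9 CPM in the first and 6418 to 7616 CPM in the next), whereas in the KO the MGE interneuron-like cluster (3724 to 3956 CPM) lay above the others. The radial glia-like cluster led by *Hopx* stood at 3387 and 2216 CPM, and the other radial glia-like cluster, led by *Aldh1l1*, *Olig2* and *Ednrb*, at 2963 and 1792 CPM. In the mesenchymal-like cluster *Pcdh8* was at 143 and 108 CPM, beside 62.6 and 94.7 CPM for an average blank barcode. The MGE interneuron-like cluster was mostly subcortical, with 5.79% of its control and 2.81% of its KO cells in the pallial region, although its name comes from the markers.

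**Figure D3:**
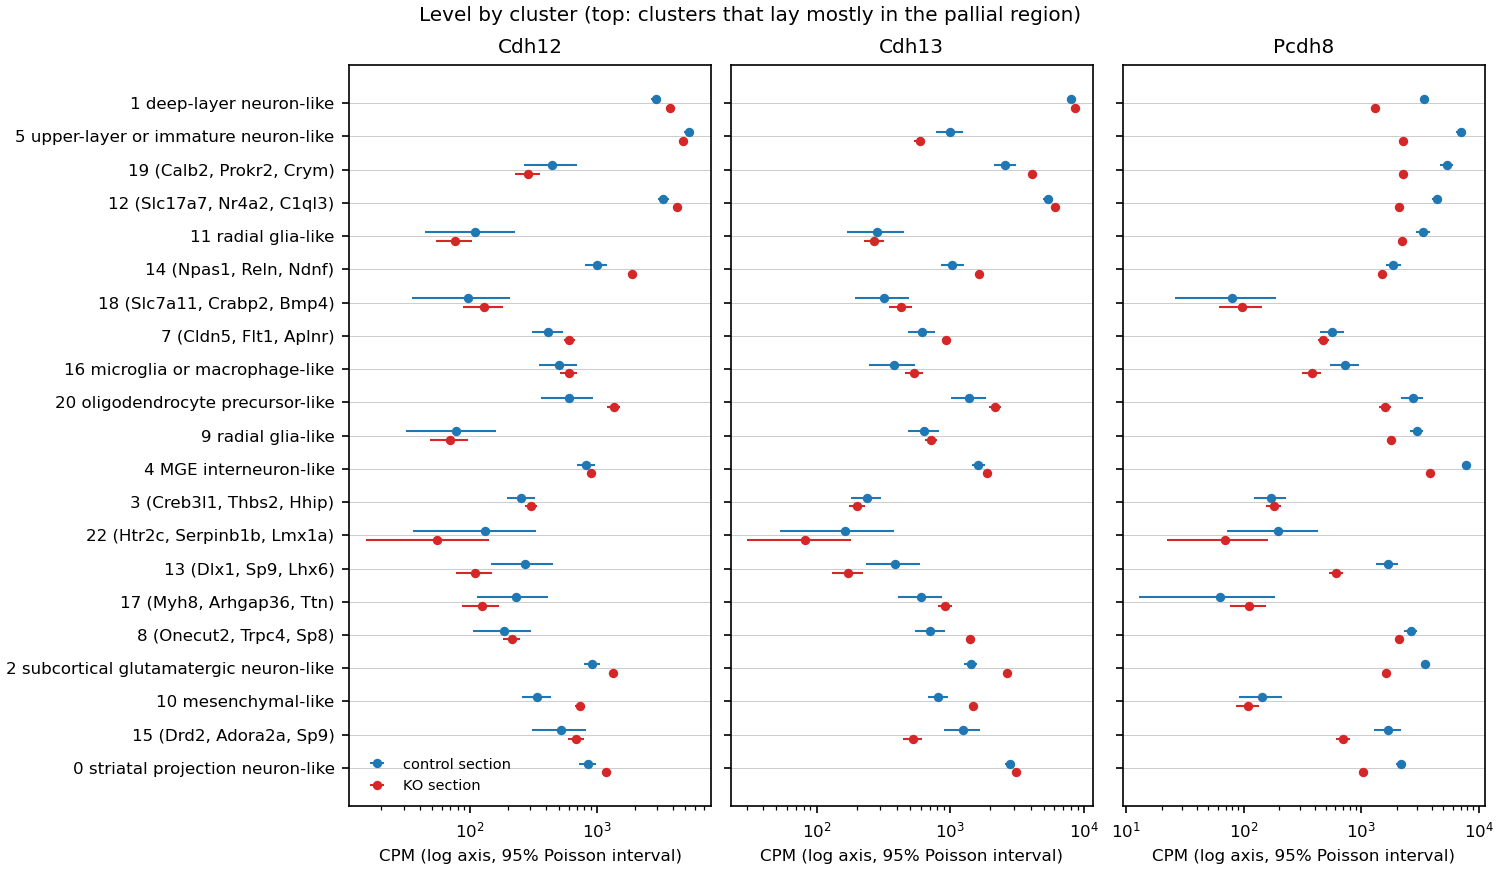
Level of each gene in CPM (log axis) in 21 of the 23 clusters with at least 200 cells in each section, control (blue) and KO (red), with exact Poisson 95% intervals; clusters without a name carry their leading genes, and those mostly in the pallial region are at the top. *Cdh13* is highest in deep-layer neuron-like cells (7982 and 8567 CPM), *Cdh12* in upper-layer or immature projection neuron-like cells (5366 and 4785 CPM) and *Pcdh8* in MGE interneuron-like cells (7743 and 3839 CPM); levels are per panel transcript, and per cell *Pcdh8* was higher in the KO over the pallial region and outside it, which was not computed by cluster.

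Single cells were compared at one depth, after each cell had been thinned at random to 25 transcripts. This left 12429 of the pallial cells of the control and 33145 of the KO, with 3836 and 581 shallower cells left out. A transcript of *Cdh12* was found in 5.35% of them in the control and 6.57% in the KO, of *Cdh13* in 8.62% and 8.11%, and of *Pcdh8* in 8.69% and 4.25%. Without thinning the shares were 7.67% and 20.8%, 11.8% and 26.1%, and 12.02% and 16.9%. The order of the sections for *Cdh13* and *Pcdh8* thus differed between thinned and unthinned cells, and the unthinned shares went against the CPM of *Pcdh8*. As a background, microglia or macrophage-like cells, which should lack *Cdh12*, gave 1.71% and 2.03% at the same depth (median before thinning 48 and 129 transcripts, beside 38 and 104 in the pallial cells). The *Cdh12* share outside the pallial region, 1.195% and 1.52%, was not above that background. However, 25.0% of the control and 32.3% of the KO cells of the microglia or macrophage-like cluster lay in the pallial region. The share was not computed for the subpallial region alone, where *Cdh12* stood at 706 and 853 CPM.

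By cluster, 18.3% and 18.4% of deep-layer neuron-like cells had a *Cdh13* transcript, beside 2.82% and 1.67% of upper-layer or immature cells and 0.60% and 1.35% of microglia or macrophage-like cells. For *Cdh12* the order was the other way round, with 6.27% and 7.87% of deep-layer neuron-like and 11.3% and 10.4% of upper-layer or immature cells. *Pcdh8* was found in 16.6% and 8.88% of MGE interneuron-like cells, 15.6% and 5.91% of upper-layer or immature cells, 7.99% and 2.87% of deep-layer neuron-like cells and 1.54% and 1.06% of microglia or macrophage-like cells.

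Whether the genes met in the same cells was read as the number of cells with both over the number expected from the product of the shares. At a fixed total of 25 transcripts, genes that are independent of each other give a value of about 0.96. Over all pallial cells *Cdh12* and *Cdh13* met in 62 control cells, a ratio of 1.08 (0.83 to 1.39), and in 180 KO cells, a ratio of 1.02 (0.88 to 1.18). Both intervals held the value of independent genes at this depth. Thinned to 50 transcripts the ratios were 1.40 (1.08 to 1.78) and 0.94 (0.86 to 1.03), so an interval above 1 was seen in deeper cells of the control and not of the KO. Thinning to 50 keeps only cells of 50 or more transcripts, a smaller part of the control than of the KO. The median over all pallial cells was 18 and 99 transcripts, so these sets of cells are unlike. Without thinning they were 1.48 (1.29 to 1.69) and 1.41 (1.36 to 1.47), but cells of unequal depth raise this ratio for any pair of genes, and no value of independent genes was computed for them.

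Within the deep-layer neuron-like cluster cells with both cadherins were fewer than expected in the KO section. At resolution 1.2 deep-layer neuron-like cells formed a cluster of 2925 control and 6262 KO cells and another of 2106 and 3667. Overlap was not computed within these, so the cluster may hold more than 1 cell type. Of the cells with a *Cdh12* transcript there, 12.2% (9.94 to 14.8) also had *Cdh13*, beside 18.9% (18.1 to 19.7) of the cells without *Cdh12*, and the ratio was 0.67 (0.53 to 0.82, 90 cells). The control values were 15.0% (10.7 to 20.3) and 18.5% (17.3 to 19.9), with a ratio of 0.82 (0.57 to 1.14, 35 cells), a difference within the counting error. Thinning to 50 transcripts gave 0.79 (0.53 to 1.14) and 0.64 (0.56 to 0.73). Without thinning the ratios were 1.10 and 0.99, for which no value of independent genes was computed. In the upper-layer or immature cluster the ratio for *Cdh12* and *Cdh13* was 1.90 (1.24 to 2.78, 26 cells) in the KO. The control ratio there was 1.76 (0.81 to 3.35, 9 cells), an interval that held 1. The share of these cells with *Cdh13* in the KO was close to that of microglia or macrophage-like cells, as given above. In the control it was higher than in those cells. Doublets were not called, and the part of stray transcripts or merged cells in this ratio was not tested. No ratio thinned to 50 transcripts or without thinning is given for this cluster.

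*Cdh12* and *Pcdh8* met in 90 pallial control cells, a ratio of 1.56 (1.25 to 1.91): 13.5% of cells with *Cdh12* had *Pcdh8*, beside 8.42% of the others. In the KO the ratio was 1.18 (0.97 to 1.42, 109 cells), with 5.005% and 4.20%. Thinned to 50 transcripts the ratios were 1.84 (1.43 to 2.32) and 1.22 (1.09 to 1.36), so that the KO interval also lay above 1. Within the upper-layer or immature cluster, where both genes were high, the ratio was 1.10 (0.75 to 1.56) and 1.22 (0.93 to 1.57), so the pallial excess in the control was not seen beyond counting error inside that cluster, whereas it was in the deep-layer neuron-like cluster of the control at 1.61 (1.09 to 2.30). In that cluster of the KO the ratio was 0.85 (0.50 to 1.34). At 50 transcripts the deep-layer ratio of the control was 1.52 (0.96 to 2.28) and that of the KO was 1.24 (0.994 to 1.53), and both intervals held 1. For *Cdh13* and *Pcdh8* the pallial ratios were 0.86 (0.68 to 1.07) and 0.81 (0.66 to 0.997), and both intervals held the value of independent genes. Thinned to 50 transcripts they were 1.27 (1.01 to 1.56) and 0.92 (0.82 to 1.02), so in the control the side of 1 depended on the depth. Without thinning they were 1.198 (1.06 to 1.35) and 1.18 (1.13 to 1.24).

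**Figure D4:**
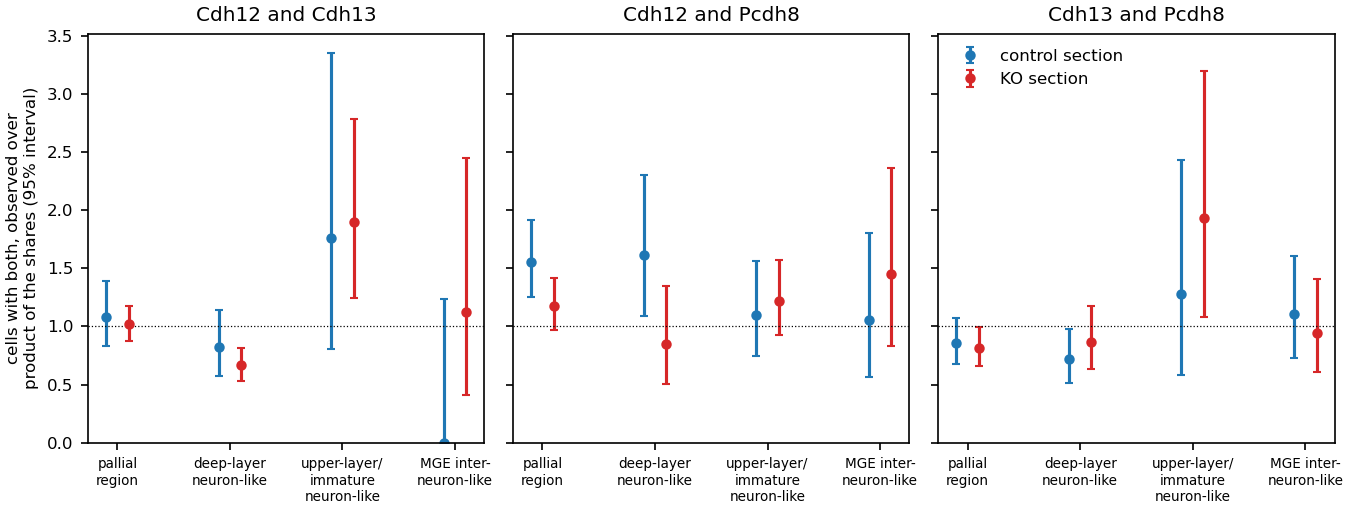
Cells with both genes of a pair over the number expected from the product of the shares, in cells thinned to 25 transcripts, for the pallial region and 3 clusters, control (blue) and KO (red), with exact 95% intervals for counting error. The dotted line is at 1, and independent genes give about 0.96. Within deep-layer neuron-like cells of the KO the pair of *Cdh12* and *Cdh13* lies below that at 0.67, and over pallial control cells the pair of *Cdh12* and *Pcdh8* lies above it at 1.56.

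Between the sections, *Pcdh8* was lower per panel transcript in the KO in the pallial region (3528 and 1711 CPM) and outside it (2216 and 1252 CPM), while its transcripts per cell were higher in the KO. The log2 ratio of KO over control was −1.04 (−1.11 to −0.98) in the pallial region, −1.09 in the subpallial region and −0.82 (−0.88 to −0.77) over all cells outside the pallial region. Of the 250 panel genes in the upper part of the range by pallial level (at the median or above it), 2.80% were lower and 4.00% higher in the KO by 2-fold or more, and *Pcdh8* had the fifth lowest ratio. Outside, 6.80% were past that fold in either direction, and *Pcdh8* had the 12th lowest ratio of 250. The median ratio over these genes was 0.05 in the pallial region and 0.06 outside.

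The scale decides this direction. Transcripts per cell were higher in the KO for the whole panel, with every log2 ratio shifted by 1.64 in the pallial region and 1.66 outside, so that per cell *Pcdh8* was at 0.60 and 0.84. Leaving the 10 most abundant genes out of the totals shifted ratios by −0.14 and −0.13. With 7 genes lower and 10 higher by 2-fold in the pallial region, the split became 13 and 7 without those 10 genes, 9 and 8 with the median of ratios, and 0 and 228 per cell. Outside it was 3 and 14 per panel transcript, 8 and 7, 7 and 10, and 0 and 230.

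*Cdh12* was higher in the KO per panel transcript, with a log2 ratio of 0.33 (0.26 to 0.41) in the pallial region and 0.47 (0.36 to 0.58) outside it (468 and 646 CPM). Outside, it was at 0.15 (−0.05 to 0.35) among cells of 20 to 60 transcripts, an interval that held 0. The share of cells with *Cdh12* outside the pallial region, thinned to 25 transcripts, was not above the microglial background given above, which included pallial cells. *Cdh13* was at 0.10 (0.04 to 0.17) in the pallial region, a difference that turned to −0.03 without the 10 most abundant genes and to −0.30 among cells of 20 to 60 transcripts. Outside it was at 0.49 (0.42 to 0.57), from 1052 to 1481 CPM, and turned to −0.17 among cells of 20 to 60 transcripts. Both cadherins lay inside the range from the 5th to the 95th percentile of the panel, −0.89 to 0.96 in the pallial region and −0.78 to 1.03 outside. In cells of 20 to 60 transcripts *Pcdh8* was at −1.07 in the pallial region and −1.24 outside. This range held cells at or above the median depth of the control and below that of the KO. With a minimum of 50 transcripts per cell it was at −0.68 and −0.63, and the part of depth in the difference was not tested.

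By hemisphere, pallial *Pcdh8* stood at 2783 and 3834 CPM in the control and at 1780.4 and 1629.6 CPM in the KO, and the pairs of hemispheres gave log2 ratios from −0.64 to −1.23. *Cdh12* stood at 2056 and 2377 CPM in the control hemispheres and 2703 and 3077 CPM in those of the KO. *Cdh13* stood at 3358 and 3671 CPM in the control and 3653 and 4077 CPM in the KO. The hemispheres of the sections thus did not overlap for *Cdh12* and *Pcdh8* and overlapped for *Cdh13*. As parts of 1 section per group they are not replicates, so this describes the sections and not the genotypes. The median depth of the hemispheres was 14 and 22 transcripts per cell in the control and 94 and 106 in the KO, and its part in these differences was not tested.

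**Figure D5:**
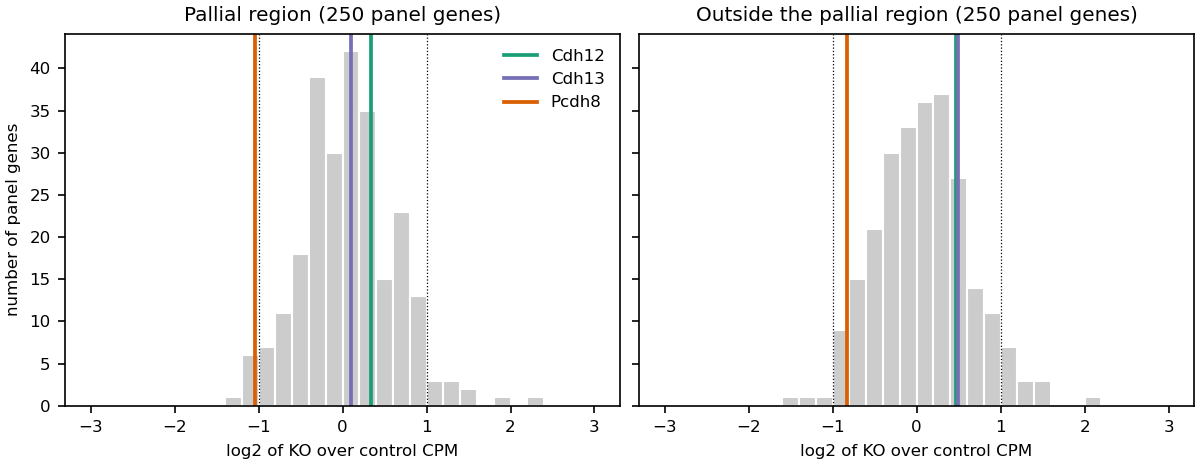
Number of panel genes by log2 ratio of KO over control CPM, for the 250 genes that reached the panel median in the pallial region (left) and outside it (right). Coloured lines mark *Cdh12*, *Cdh13* and *Pcdh8*, and dotted lines mark 2-fold; per panel transcript *Pcdh8* lies in the lower tail at −1.04 and −0.82 (per cell it is at 0.60 and 0.84), whereas the cadherins lie among most other genes, *Cdh13* at 0.10 in the pallial region on a side of 0 that depends on the scaling.

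Along the cortical wall the ratio of *Pcdh8* was −1.33 in the outer 4 bins, −1.0 in the middle and −1.11 in the inner 3. The ratio of *Cdh12* was 0.46, 0.31 and 0.13. *Cdh13* was at 0.09 in the outer and −0.01 in the middle bins and at −0.74 (−0.99 to −0.47) in the inner bins, where it was sparse. *Pcdh8* was thus lower per panel transcript in every zone. These ratios were not computed by hemisphere. The inner share of *Cdh13* was 9.004% and 3.42% in the KO hemispheres, on either side of 7.99% and 7.15% in those of the control.

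By cluster, 23 clusters with at least 200 cells in each section were compared, and a gene was counted where it reached the median of the panel. Over all such pairs of a gene and a cluster, 6.21% were lower and 8.50% higher in the KO by 2-fold or more, and 44.7% were lower by any amount. *Pcdh8* was lower in 18 of 19 clusters per panel transcript, in 11 of them by 2-fold or more, with a median log2 ratio of −1.06 (range −1.63 to 0.08). *Cdh12* was higher in 13 and lower in 4 of 17 clusters, 2 and 1 of them by 2-fold or more, with a median of 0.36. *Cdh13* was higher in 16 and lower in 6 of 22 clusters, 0 and 2 of them by 2-fold or more, with a median of 0.25. The clusters share 1 section per group and are not replicates.

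Among clusters where *Pcdh8* reached the panel median, its lowest ratio was that of the upper-layer or immature cluster, at −1.63 (−1.77 to −1.49). The deep-layer neuron-like cluster was at −1.37 (−1.51 to −1.23). Unnamed clusters that lay almost wholly outside the pallial region were at −1.47 (−1.83 to −1.09) in that led by *Dlx1*, *Sp9* and *Lhx6* and −1.26 (−1.69 to −0.81) in that led by *Drd2*, *Adora2a* and *Sp9*. Many other genes were also lower there: 34 of 250 genes were lower by 2-fold in the first of these clusters, with *Pcdh8* at rank 15 from the lowest, and 60 of 250 in the second, with *Pcdh8* at rank 40. The *Calb2* and *Crym* cluster was at −1.23 and the subcortical glutamatergic neuron-like cluster at −1.10. In the deep-layer neuron-like cluster *Pcdh8* had the third lowest ratio of 250 genes. The radial glia-like class was at −0.65 (3138 and 2007 CPM). The unnamed *Npas1*, *Reln* and *Ndnf* cluster was at −0.33 (1876 and 1493 CPM). The lower share of *Pcdh8* was thus measured in pallial and subpallial clusters, the MGE interneuron-like cluster that *Sst* led among them.

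Within the MGE interneuron-like cluster, which includes *Sst*-expressing cells, *Pcdh8* was at −1.01 (−1.10 to −0.93), *Cdh12* at 0.13 (−0.11 to 0.39) and *Cdh13* at 0.21. The 913 control and 4603 KO cells with at least 1 transcript of *Sst* together with *Gad1* or *Gad2* gave −1.12 (−1.30 to −0.93) for *Pcdh8* (5381 and 2477 CPM), 0.49 for *Cdh12* and 0.24 for *Cdh13*. In the pallial region alone there were 190 and 926 such cells, with *Pcdh8* at 5143 CPM (3943 to 6593) and 2297 CPM (2099 to 2508). All of these cells were chosen without thinning, so cells of the deeper KO section could qualify more easily, and 1 stray *Sst* molecule was enough beside *Gad1* or *Gad2*. The control and KO sets are therefore not like for like. Over all cells of the whole section the *Pcdh8* ratio was −0.89 (−0.93 to −0.85), and in the pallial region it was −1.04. No difference between the *Sst* and *Gad* cells and others was tested.

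The ratios of the cadherins differed between projection neuron clusters. In the upper-layer or immature cluster *Cdh12* was at −0.17 (−0.31 to −0.01) and *Cdh13* at −0.74 (−1.10 to −0.37), whereas in the deep-layer neuron-like cluster they were at 0.38 (0.25 to 0.51) and 0.10 (0.02 to 0.18). The panel median was −0.14 in the upper-layer or immature cluster, where *Cdh12* had rank 121 and *Cdh13* rank 43 of 250 from the lowest. *Cdh12* was thus close to the typical gene there. In the deep-layer neuron-like cluster the panel median was −0.12, and the ranks were 203 and 156. With a minimum of 50 transcripts per cell the deep-layer values were 0.16 (−0.06 to 0.39) and −0.06, the opposite sign for *Cdh13*. At the minimum of 20 transcripts the intervals of each gene did not overlap between these clusters. With cells chosen by marker transcripts and no clustering, *Cdh12* in upper-layer or immature cells was at 0.10, the opposite sign. The highest *Cdh12* ratios were those of clusters in which the gene was low, the oligodendrocyte precursor-like cluster (599 and 1359 CPM) and the mesenchymal-like cluster (339 and 741 CPM).

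Of the 10 cadherin list genes, 7 reached the panel median in the pallial region. Among them 5 were higher and 2 lower in the KO per panel transcript, with a median log2 ratio of 0.29, beside 0.05 over the panel genes. *Pcdh8* was lower by 2-fold, and the δ1 protocadherin *Pcdh7* was the 1 gene higher by 2-fold, at 1.05 (563 and 1166 CPM). The other δ1 member above the median, *Pcdh9*, was at −0.36 (7562 and 5910.5 CPM), the type II cadherin *Cdh20* at 0.29 and *Clstn2* at 0.41. The genes under the median were *Cdh9* at 0.58, *Pcdh11x* at 0.17 and *Pcdh15* at 0.16. Outside the pallial region 5 list genes stood above the median, 0 of them past 2-fold, with a median of 0.33 per panel transcript. Per cell all ratios shift up as given above, and *Pcdh8* then lay above 0 in both regions. Among 14 other adhesion and guidance genes, 9 were above the pallial median, with 0 lower and 2 higher by 2-fold per panel transcript, the receptors *Epha3* (1.85) and *Unc5d* (1.51), beside 2.80% lower and 4.00% higher over the panel genes. Both were named after their values had been seen. The median of ratios moves every pallial ratio by a log2 shift of −0.05, and leaving out the 10 most abundant genes by one of −0.14. Under either shift *Pcdh7* was no longer past 2-fold, and under the second *Cdh13* was below 0.

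Of the decoded molecules, 88.7% of *Cdh12*, 83.5% of *Cdh13* and 85.9% of *Pcdh8* lay inside cells in the control and 84.8%, 83.2% and 80.2% in the KO, beside 83.1% and 82.4% for the median panel gene. The share of *Cdh12* in the control was above that of 231 of 250 panel genes, and that of *Pcdh8* was above 190 of them in the control and above 68 in the KO. With all decoded molecules counted, inside cells or not, the pallial log2 ratio of *Pcdh8* was −1.02, that of *Cdh12* 0.32 and that of *Cdh13* 0.22.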

How the data were processed

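MERFISH was run by the authors on the MERSCOPE instrument with its Pan Neuro panel, which also decoded the molecules and segmented the cells. The authors deposited a raw count of molecules for every gene in every segmented cell, with positions of cells and molecules, and had not normalised it. The segmentation model, the versions of the instrument software and a genome build are not given in the sources used here. No sample columns lay outside the series, and the deposited counts of blank barcodes were kept out of all totals.

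Counts of cells with at least 20 panel transcripts were summed and scaled to CPM in Python 3.11.15 (pandas 2.3.3, numpy 2.4.6, scipy 1.17.1; matplotlib 3.10.9 for plots). The precision is set by the counts, pallial control transcripts numbering 1500 to 2352 per gene and KO transcripts 7275 to 16368. Sums carry exact Poisson intervals, shares exact binomial (Clopper-Pearson) intervals and ratios of KO over control exact conditional intervals, all at 95% and for counting error only. With 1 section per group no test was run. Calls are ratios of 2-fold or more among genes that reached the median level of the panel.

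The pallial region was drawn on a grid of 25 µm, smoothed with an SD of 50 µm, from bins where 5 pallial genes outweighed 12 subpallial genes, with over 50% of their joint transcripts. These settings were chosen with both sections already in view. Depth was used in 10 bins, with walls over 800 µm and a medial band of 600 µm left out. Cells were clustered with Seurat 5.3.0 (R 4.3.3) by reciprocal PCA with 30 components at resolution 0.8, without the 3 genes. Doublets were not called, and cells in the top 1% by volume were dropped as a check on merged cells. The code was tested on simulated data.

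The members and the gene lists were chosen with earlier results of these data known. The genes named are the 3 members, the cadherin list, the 3 panel genes most like each member and the leading genes of clusters. One gene of this rule and 2 clusters are not reported here. *Epha3* and *Unc5d* were named after their values had been seen. Alternatives covered the minimum of transcripts (10, 50 or none), hemispheres, imaging plane 0, all decoded molecules, the region's outline, the scaling, the largest cells, resolution 1.2, marker-defined cells and thinning. Restricting both sections to cells of 20 to 60 transcripts was added after the data had been seen.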

Additional observations from a re-analysis of the deposited data

Results flagged for a closer look

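The ratio of KO over control for *Cdh12* differed in direction between clusters. It was lowest at −1.30 (−2.22 to −0.31) in an unnamed cluster led by *Dlx1*, *Sp9* and *Lhx6* and highest at 1.18 (0.51 to 1.94) in the oligodendrocyte precursor-like cluster, and intervals lay below 0 in 2 clusters and above 0 in 8. In the *Dlx1* cluster 34 of 250 genes were lower by 2-fold and *Cdh12* had rank 21 from the lowest. For *Cdh13* it was lowest at −1.24 (−1.74 to −0.72) in an unnamed cluster led by *Drd2*, *Adora2a* and *Sp9*, from 1247 to 527 CPM, and highest at 0.99 (0.61 to 1.39) in an unnamed cluster led by *Onecut2*, *Trpc4* and *Sp8*, from 711 to 1409.7 CPM, with 3 clusters below 0 and 12 above. In the *Drd2* cluster the panel median was −0.31, 60 of 250 genes were lower by 2-fold and *Cdh13* had rank 42 from the lowest. These differences between clusters were not tested, since each group is 1 section.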

How the results depend on the processing

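No paired analysis was possible because each group is 1 section. Of 198 alternative values, 92 stayed within the counting interval of the value reported, 97 lay outside it with the sign kept or no sign to keep, and 9 turned the sign of a ratio whose interval had excluded 0. Log2 ratios of KO over control are given first.

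In the pallial region *Cdh12* was at 0.25 with no minimum of transcripts, 0.61 with a minimum of 50, 0.41 in imaging plane 0, 0.58 and 0.19 for 2 of the pairs of hemispheres, 0.20 without the 10 most abundant genes and 1.98 per cell. *Cdh13* was at 0.20 with no minimum, 0.18 with a minimum of 10, 0.22 for all decoded molecules, 0.28 for 1 pair of hemispheres and 1.75 per cell, and it turned to −0.0073 for another pair, −0.0335 without the 10 most abundant genes and −0.30 in cells of 20 to 60 transcripts. *Pcdh8* was at −1.12 with no minimum or one of 10, −0.68 with one of 50, −0.64, −0.77 and −1.23 for 3 pairs of hemispheres and −1.18 without the 10 most abundant genes, and turned to 0.60 per cell.

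Outside the pallial region *Cdh12* was at 0.63 with a minimum of 50, 0.73 in plane 0, 0.34 without the 10 most abundant genes, 2.13 per cell and 0.15 in cells of 20 to 60. *Cdh13* was at 0.60 with no minimum, 0.58 with one of 10, 0.57 for all molecules, 0.37 without the 10 most abundant genes and 2.16 per cell, and turned to −0.17 in cells of 20 to 60. *Pcdh8* was at −0.63 with a minimum of 50, −0.70 for all molecules, −0.66 in plane 0, −0.95 without the 10 most abundant genes, −0.88 with the median of ratios and −1.24 in cells of 20 to 60, and turned to 0.84 per cell.

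By cluster, a minimum of 50 gave 0.16 for *Cdh12* and turned *Cdh13* to −0.0602 in deep-layer neuron-like cells and to −0.0139 in striatal projection neuron-like cells. Cells chosen by marker transcripts gave 0.23 for *Cdh13* and −1.09 for *Pcdh8* in deep-layer neuron-like cells, −1.44 for *Pcdh8* in upper-layer or immature cells, and turned *Cdh12* there to 0.10. Resolution 1.2 turned none of these.

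The outer share of *Cdh12* was 40.5% in the control and 41.98% in the KO when averaged by CPM, 49.1% in the KO for all molecules and 50.3% in 1 control hemisphere. That of *Cdh13* was 50.5% and 54.6% by CPM, 60.5% and 60.6% for all molecules, 65.1% and 55.7% in the control hemispheres and 57.0% and 61.2% in those of the KO. That of *Pcdh8* was 29.9% and 24.8% by CPM, 37.5% in the control for all molecules and 30.4% and 34.4% in the KO hemispheres. KO minus control by pairs of hemispheres lay at −2.76 points for *Cdh12*, −8.12, −3.91 and 5.47 points for *Cdh13* and −4.56 points for *Pcdh8* where it moved.

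Pallial cells with a transcript, control and KO, were 7.67% and 20.8% unthinned, 8.65% and 11.9% thinned to 50 and 0.56% and 0.71% with at least 2 transcripts for *Cdh12*. For *Cdh13* they were 11.8% and 26.1%, 15.6% and 15.4%, and 0.83% and 0.89%. For *Pcdh8* they were 12.02% and 16.9%, 12.8% and 8.07%, and 0.78% and 0.18%.

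Cells with both genes over the number expected in the pallial region, control and KO, were 1.48 and 1.41 unthinned for *Cdh12* with *Cdh13*, 1.48 in the KO for *Cdh12* with *Pcdh8*, and 1.198 and 1.18 for *Cdh13* with *Pcdh8*. Thinned to 50 they were 1.40 and 1.27 in the control for the first and last pair. In deep-layer neuron-like cells of the KO the unthinned values were 0.99 for *Cdh12* with *Cdh13* and 1.61 for *Cdh12* with *Pcdh8*. The overlap at 2 or more transcripts could not be evaluated, with under 5 cells expected. For all molecules *Pcdh8* in the control had no log2 difference between pallial and subpallial region (−0.0017). Depth limited the overlap in the control, where the pairs described met in 0 to 90 thinned cells.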
